A study of Homo sapiens with 18 samples.

Results

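Collagen and laminin chains were the genes whose symbols name an alpha chain of a collagen or an alpha, beta or gamma chain of a laminin. The deposited table held 55 such genes among 17017, of which 43 were collagen chains and 12 were laminin chains. Members were matched by symbol and by no measured value, but the family was chosen with earlier results of these data known. The cells were MDA-MB-231, an established human line of triple-negative breast carcinoma, in which fibrillarin, the nucleolar methyltransferase that 2'-O-methylates ribosomal RNA, was knocked down. Cells received lentiviral pLKO.1 particles with a scramble sequence (SC, read here as the scramble control) or with a hairpin against the fibrillarin mRNA (SH2 or SH3). Whether SH2 or SH3 is the hairpin that the protocols call the first knockdown is not stated in the labels. All groups, SC included, were exposed to virus and grown in puromycin at 1 µg/ml for 96 h, were given fresh medium, and were treated the next day with cycloheximide, which halts elongating ribosomes, at 100 µg/ml for 5 min. Each lysate gave cytoplasmic input RNA (called RNA here) and, after RNase I digestion, ribosome-protected fragments (called footprints). There were 3 replicates of each treatment and library kind, which makes 18 libraries.

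Collagens are trimers wound from 3 alpha chains. Fibrillar types build tensile fibres, type IV forms the network of basement membranes, type VI forms beaded microfilaments around cells, and smaller classes link fibrils, anchor epithelia or span the cell membrane. Laminins are cross-shaped trimers of 1 alpha, 1 beta and 1 gamma chain that polymerise on the cell surface and start basement membrane assembly. Chains assemble in the endoplasmic reticulum, so a secreted trimer needs each of its partners. Carcinoma cells make many of these chains themselves.

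Start-site sequences are shown for 3 genes because their chains departed from those of their assembly partners in the values that follow. COL4A2 lies head to head with COL4A1, so the bases between the starts lie upstream of both. LAMA3 and LAMB3 encode partner chains of one epithelial laminin. RefSeq (GRCh38.p14) gave a window of 300 bases for 40 of the 55 genes, and COL6A1 was not among them. The 250 bases before the annotated start are printed on the gene's own strand, with capitals for matches on either strand. The motifs searched were TATAAA as the core promoter box, CCAAT as the box bound by NF-Y, GGGCGG as the box bound by Sp family factors, TGANTCA as the AP-1 element, and CACGTG as the palindromic E-box.
COL4A2 (chr13:110307034-110307283, plus strand): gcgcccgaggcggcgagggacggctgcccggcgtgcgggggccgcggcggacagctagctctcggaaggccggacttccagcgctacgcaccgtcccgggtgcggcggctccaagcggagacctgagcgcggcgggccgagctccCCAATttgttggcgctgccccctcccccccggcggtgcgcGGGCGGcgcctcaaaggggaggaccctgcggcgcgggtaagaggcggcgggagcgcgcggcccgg
LAMA3 (chr18:23872770-23873019, plus strand): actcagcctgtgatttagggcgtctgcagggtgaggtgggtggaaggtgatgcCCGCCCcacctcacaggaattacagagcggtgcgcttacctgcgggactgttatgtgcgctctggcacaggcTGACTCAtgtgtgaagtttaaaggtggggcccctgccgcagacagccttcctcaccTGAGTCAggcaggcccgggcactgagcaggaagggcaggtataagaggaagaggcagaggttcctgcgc
LAMB3 (chr1:209652426-209652675, minus strand): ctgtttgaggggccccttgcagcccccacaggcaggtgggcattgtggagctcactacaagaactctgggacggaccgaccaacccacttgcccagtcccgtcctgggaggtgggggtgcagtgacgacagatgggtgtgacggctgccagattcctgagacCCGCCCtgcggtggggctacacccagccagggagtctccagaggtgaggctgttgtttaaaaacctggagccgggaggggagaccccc

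The annotated starts of COL4A1 and COL4A2 lay 127 bases apart on opposite strands of chromosome 13, and their windows shared 226 bases. LAMA3 held 2 matches to TGANTCA, beginning 125 and 69 bases before its start. It was the 1 window with that motif among the 40, against 7.71% of 35116 windows of the same length in the table. GGGCGG was found in 23 of the 40 windows and in 45% of all windows, and CCAAT in 11 of the 40 and in 34.6% of all. A match describes the letters of the window and is not a measured binding site.

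The targeted gene FBL was at 349 to 421 CPM (the count scaled to library size as edgeR gives it, with TMM factors within each library kind) in SC RNA, at 1.25 to 11.2 CPM in SH2 and at 2.95 to 4.15 CPM in SH3. Library totals ran from 23469830 to 27629488 counts in RNA and from 1662705 to 6098648 in footprints, so footprint values rest on fewer counts. VIM, a mesenchymal marker of this line, was at 4080 to 7221 CPM in RNA, and 7 luminal and epithelial markers summed to 21.1 to 32.5 CPM. Of these, ESR1 and PGR had at most 2 counts in any RNA library and CDH1 at most 11, FOXA1 had 10 to 29, and EPCAM (125 to 218), GATA3 (185 to 370) and ERBB3 (135 to 405) were present in all. The summed level of 5 fibroblast genes was 3.22 to 3.71 CPM in SC, 6.47 to 7.36 CPM in SH2 and 5.48 to 5.71 CPM in SH3, most of it PDGFRB, with LUM at 4 to 29 counts, THY1 at up to 9, and DCN and PDGFRA at up to 5 in any library. Its part in the collagen results was not tested. Input RNA and footprints with the same number should come from 1 lysate, but their deviations from the group means correlated at -0.54 and -0.53 for numbers 1 and 2 of SC and at -0.36 and -0.34 for those of SH2. Across these numbers they correlated at 0.66 and 0.50 in SC and at 0.63 and 0.57 in SH2, over 7536 genes. In SH3 the same-numbered pairs correlated at 0.51, 0.39 and 0.24. No result below pairs an RNA library with a footprint library unless it says so. Nothing in the labels says that replicates came from separate cultures, so p-values measure the spread between these libraries only.

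Collagen and laminin RNA was higher in both knockdowns. The 55 chains together took 0.198% ± 0.0236 of the counts of SC RNA, against 0.42% ± 0.0318 for SH2 and 0.351% ± 0.0454 for SH3 (mean ± SD, n = 3 each). The share was 0.177% to 0.223% in the SC libraries, below each library of SH2 (lowest 0.388%) and of SH3 (lowest 0.316%). In bulk libraries, more cells making a chain and more RNA per cell cannot be told apart. Of the 55 chains, 36 passed the filter on low counts in RNA, 26 collagens and 10 laminins. Of the 36, COL3A1 and COL11A2 passed the filter only through SH2 and COL4A4 only through SC, the group where each was highest, so they had to differ and their calls are not read. The counts that follow include them and describe the chains that passed. Against SC, 30 of the 36 passed an adjusted p of 0.05 in SH2 (called, by edgeR's quasi-likelihood test with Benjamini-Hochberg adjustment over 12710 genes), beside 61.4% of all genes tested. Of these, 23 rose (31.1% of all genes did) and 7 fell (30.4%). In SH3, 25 were called (53% of all genes), 18 of them higher (27.8%) and 7 lower (25.2%). The median log2 change of the 36 was 0.81 in SH2 and 0.67 in SH3, beside 0.01 and 0.03 over all genes. Both comparisons use the same SC libraries, so their values are not independent of each other.

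**Figure D1:**
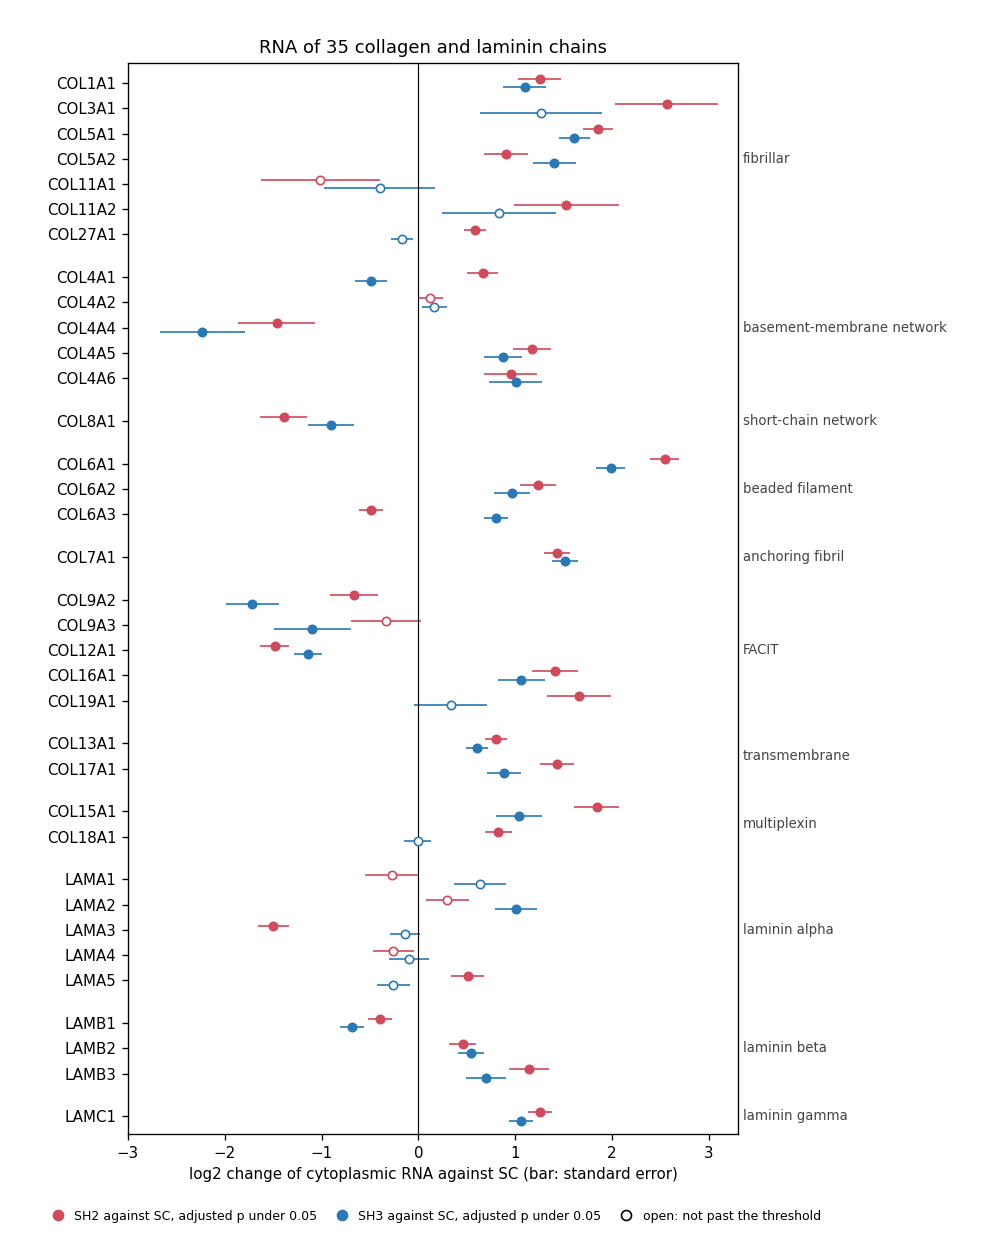
Log2 change of RNA against SC (horizontal axis, with its standard error) for 35 chains that passed the filter, grouped by class; red is SH2, blue is SH3, and open circles did not pass an adjusted p of 0.05. COL6A1 stands farthest to the right among chains called in both knockdowns, at 2.54 and 1.99, while COL4A1 and COL6A3 have their red and blue points on opposite sides of 0. COL3A1 and COL11A2 passed the filter only through SH2 and COL4A4 only through SC, so their filled circles are not read.

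LAMA3 and LAMB3, partner chains of the epithelial laminin that anchors basal cells, did not move together. LAMA3, its alpha chain and the part bound by integrins, was at 45.7, 50.8 and 43.5 CPM in SC RNA, at 13.1, 21.6 and 14.9 in SH2 and at 47.1, 38.0 and 41.8 in SH3 (replicates 1, 2 and 3 throughout). All SH2 libraries were below all others, and SH3 overlapped SC. LAMA3 RNA fell by 1.5 on the log2 scale in SH2 (SE 0.16, adjusted p of 2.8e-06 by edgeR) and differed from SC by -0.14 in SH3 (SE 0.15, adjusted p of 0.457 by edgeR). The direct difference of SH2 from SH3 was -1.36 (SE 0.16, adjusted p of 2.3e-05 by edgeR).

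LAMB3, the beta chain, went the other way, at 523, 336 and 341 CPM in SC RNA, 1153, 701 and 795 in SH2 and 812, 613 and 524 in SH3. SH2 lay wholly above SC, and the lowest SH3 library was level with the highest SC library. The log2 changes were 1.14 (SE 0.21, adjusted p of 0.00033 by edgeR) and 0.70 (SE 0.21, adjusted p of 0.0118 by edgeR). The SH3 call was lost without SC replicate 3 (0.59, adjusted p of 0.051 by edgeR) and without SH3 replicate 1 (0.47, adjusted p of 0.089 by edgeR).

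**Figure D2:**
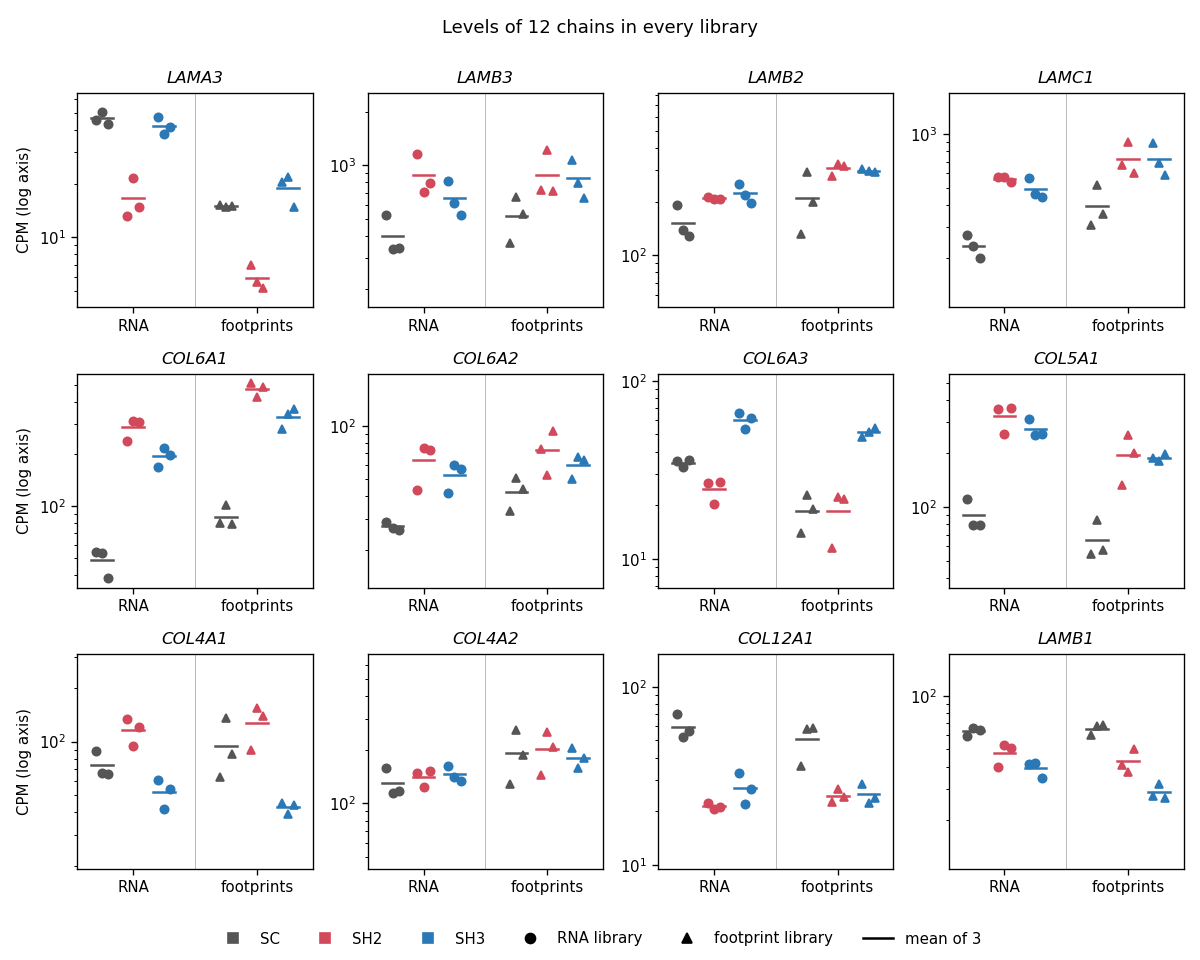
CPM (vertical log axis) of 12 chains in each of the 18 libraries; circles are RNA, triangles are footprints, grey is SC, red is SH2, blue is SH3, and bars are means of 3. LAMA3 is low in SH2 alone, COL6A3 is high in SH3 alone, COL4A1 in RNA is above SC in SH2 and below it in SH3, and COL4A2 overlaps between all groups.

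LAMC1, the gamma chain of most laminins, was at 271, 234 and 200.5 CPM in SC RNA, 570.2, 576 and 537 in SH2 and 566, 459.9 and 444 in SH3. Both knockdowns were wholly above SC, with log2 changes of 1.26 (SE 0.12, adjusted p of 1.4e-06 by edgeR) and 1.06 (SE 0.12, adjusted p of 1e-05 by edgeR). The widely used beta chains diverged. LAMB1 was at 59.5, 65.8 and 64.1 CPM in SC RNA, 39.8, 52.8 and 51.2 in SH2 and 41.2, 42.1 and 34.4 in SH3, with no overlap with SC. It fell by 0.40 (SE 0.12, adjusted p of 0.0105 by edgeR) and by 0.69 (SE 0.12, adjusted p of 0.00032 by edgeR). Without SH2 replicate 1 the SH2 value was -0.28 (adjusted p of 0.054 by edgeR). LAMB2, which replaces LAMB1 in several basement membranes, was at 191, 138 and 128 CPM in SC, 212, 208 and 207 in SH2 and 251, 219 and 197 in SH3. It rose by 0.46 (SE 0.14, adjusted p of 0.0095 by edgeR) and 0.55 (SE 0.14, adjusted p of 0.0038 by edgeR), with both knockdowns above SC. Without SC replicate 3 the SH2 change was 0.34 (adjusted p of 0.056 by edgeR).

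Among the other alpha chains, LAMA5, the main alpha chain of adult epithelial and vascular basement membranes, was at 199.6, 280.2 and 248 CPM in SC RNA, 245, 379 and 413 in SH2 and 203, 184 and 221 in SH3. The SC range overlapped both knockdowns. LAMA5 rose by 0.51 in SH2 (SE 0.17, adjusted p of 0.0177 by edgeR), a call lost without SC replicate 1 (0.37, adjusted p of 0.075 by edgeR), SH2 replicate 2 (0.43, adjusted p of 0.077 by edgeR) or SH2 replicate 3 (0.34, adjusted p of 0.127 by edgeR). Its SH3 value was -0.26 (SE 0.17, adjusted p of 0.211 by edgeR). LAMA2, the alpha chain of muscle and nerve laminin, had 49 to 84 counts in SC RNA and 111 to 143 in SH3, where it rose by 1.01 (SE 0.22, adjusted p of 0.0014 by edgeR). In SH2 it had 67 to 92 counts, and its value was 0.30 (SE 0.22, adjusted p of 0.26 by edgeR). LAMA1 was 0.64 from SC in SH3 (SE 0.27, adjusted p of 0.058 by edgeR) and -0.28 in SH2 (SE 0.27, adjusted p of 0.393 by edgeR). Without SC replicate 1, where LAMA1 had 324 counts against 123 and 174, the SH3 value was 1.11 (adjusted p of 0.00035 by edgeR). LAMA4, an endothelial and mesenchymal alpha chain, was at -0.26 and -0.10 (SE 0.21 each, adjusted p of 0.295 and 0.708 by edgeR), and without SH2 replicate 2 its SH2 value was -0.54 (adjusted p of 0.029 by edgeR).

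In type VI collagen COL6A1 and COL6A2 rose in both knockdowns, while COL6A3 fell in SH2 and rose in SH3. COL6A1 was at 54.5, 53.9 and 38.4 CPM in SC RNA, 238, 311 and 306 in SH2 and 169, 215 and 198 in SH3. The 3 groups did not overlap, and the log2 changes were 2.54 (SE 0.15, adjusted p of 2.7e-08 by edgeR) and 1.99 (SE 0.15, adjusted p of 3.8e-07 by edgeR). COL6A2, its obligate partner, was at 28.7, 26.7 and 25.9 CPM in SC, 43.5, 75.1 and 73.3 in SH2 and 41.6, 60.3 and 57.0 in SH3. Both knockdowns were above SC, with replicate 1 the lowest of each, and the changes were 1.24 (SE 0.19, adjusted p of 5.9e-05 by edgeR) and 0.97 (SE 0.19, adjusted p of 0.00063 by edgeR). COL6A3, the long chain that completes the type VI trimer, was at 35.3, 32.8 and 35.9 CPM in SC, 26.8, 20.3 and 27.1 in SH2 and 66.0, 53.9 and 61.6 in SH3. All SH2 libraries were below SC and all SH3 libraries above it. COL6A3 fell by 0.49 in SH2 (SE 0.12, adjusted p of 0.0035 by edgeR) and rose by 0.80 in SH3 (SE 0.12, adjusted p of 9.9e-05 by edgeR).

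Type IV collagen split within its main trimer, which winds COL4A1 chains with a COL4A2 chain. COL4A1 was at 88.6, 66.4 and 65.6 CPM in SC RNA, 134, 95 and 120.4 in SH2 and 61, 41.6 and 54.5 in SH3. SH2 was wholly above SC and SH3 wholly below it. The log2 change was 0.66 in SH2 (SE 0.16, adjusted p of 0.0026 by edgeR) and -0.49 in SH3 (SE 0.16, adjusted p of 0.0205 by edgeR). The SH3 call was lost without SC replicate 1 (-0.35, adjusted p of 0.083 by edgeR) or SH3 replicate 2 (-0.38, adjusted p of 0.084 by edgeR). COL4A2 was at 157, 115 and 117 CPM in SC, 147, 124 and 153 in SH2 and 163, 140.0 and 134 in SH3, with the groups overlapping. Its values were 0.12 (SE 0.13, adjusted p of 0.426 by edgeR) and 0.16 (SE 0.13, adjusted p of 0.306 by edgeR), and without SC replicate 1 the SH3 value was 0.31 (adjusted p of 0.043 by edgeR).

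Among the minor type IV chains, COL4A5 and COL4A6 rose in RNA in both knockdowns. COL4A5, a chain of kidney and epithelial basement membranes, was at 15.2, 11.8 and 12 CPM in SC RNA, 37.1, 26.1 and 24.7 in SH2 and 30.2, 23.3 and 17.9 in SH3. It was above SC in every knockdown library, with changes of 1.17 (SE 0.20, adjusted p of 0.00015 by edgeR) and 0.87 (SE 0.20, adjusted p of 0.002 by edgeR). COL4A6, which lies head to head with COL4A5 (380 bases between their starts) and shares a trimer with it, had 133, 59 and 85 counts in SC, 206, 204 and 167 in SH2 and 258, 150 and 153 in SH3. It rose by 0.95 (SE 0.28, adjusted p of 0.0084 by edgeR) and 1.00 (SE 0.28, adjusted p of 0.0074 by edgeR), and no knockdown library overlapped SC. Without SH3 replicate 1 the SH3 change was 0.66 (adjusted p of 0.058 by edgeR). COL4A4 had 44, 18 and 28 counts in SC, 14, 7 and 14 in SH2 and 7, 8 and 4 in SH3, all below SC. From the summed counts its ratio to SC was 0.384 in SH2 and 0.222 in SH3. COL4A4 passed the filter only through SC, so these ratios are not read as a fall. COL4A3, its head-to-head neighbour at 419 bases, had 3 counts in each SC RNA library and at most 1 elsewhere, and was not tested.

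Of 7 fibrillar chains tested in RNA, 6 were called higher in SH2 (31.1% of all genes), 3 in SH3 (27.8%) and 0 lower in either. The 6 include COL3A1 and COL11A2, which passed the filter only through SH2. The count of 6 is therefore not read against the share of all genes or against SH3. COL5A1, which nucleates fibrils and limits their width, was at 111, 79.1 and 79.6 CPM in SC RNA, 355, 256 and 362 in SH2 and 311, 254 and 256 in SH3. Every knockdown library was above every SC library, and the changes were 1.85 (SE 0.16, adjusted p of 4.4e-07 by edgeR) and 1.61 (SE 0.16, adjusted p of 3e-06 by edgeR). COL5A2, its partner in type V trimers, had 27, 23 and 32 counts in SC RNA, 50, 53 and 63 in SH2 and 82, 70 and 67 in SH3, with no overlap. It rose by 0.90 (SE 0.23, adjusted p of 0.0032 by edgeR) and 1.40 (SE 0.22, adjusted p of 0.00014 by edgeR).

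COL1A1, a chain of the most abundant fibrillar collagen, was at 42.4, 25.9 and 28.2 CPM in SC RNA, 100.5, 50.4 and 79.0 in SH2 and 77.4, 61.7 and 67.0 in SH3. It rose by 1.25 (SE 0.22, adjusted p of 0.00023 by edgeR) and 1.10 (SE 0.22, adjusted p of 0.00089 by edgeR), again without overlap. COL1A2, its usual partner, had at most 6 counts in any RNA library and was not tested. COL3A1 had 2, 4 and 2 counts in SC, 21, 16 and 16 in SH2 and 7, 2 and 11 in SH3. From the summed counts its ratio of SH2 to SC was 6.54, which is not read as a rise because COL3A1 passed the filter only through SH2. SH3 overlapped SC. COL27A1, a cartilage-type fibrillar chain, was at 18, 15.7 and 16.0 CPM in SC RNA, 22.7, 24.3 and 27.8 in SH2 and 14.6, 15.1 and 14.6 in SH3. It rose by 0.59 in SH2 (SE 0.11, adjusted p of 0.0005 by edgeR), and its SH3 value was -0.17 (SE 0.12, adjusted p of 0.237 by edgeR). COL11A2 had 10, 3 and 8 counts in SC, 28, 17 and 21 in SH2 and 25, 6 and 7 in SH3. COL11A1 passed in neither knockdown, at -1.01 and -0.40 (SE 0.61 and 0.57, adjusted p of 0.166 and 0.581 by edgeR).

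Collagens of the epithelial anchor and the cell membrane rose. COL7A1, the anchoring fibril chain of skin, was at 22.4, 16.8 and 17.1 CPM in SC RNA, 56.0, 41.2 and 54.5 in SH2 and 52.5, 55.8 and 52.3 in SH3. It rose by 1.43 (SE 0.14, adjusted p of 1.3e-06 by edgeR) and 1.51 (SE 0.14, adjusted p of 1.9e-06 by edgeR), with no overlap. COL17A1, a membrane-spanning hemidesmosome chain, was at 14.1, 13.6 and 12.4 CPM in SC, 41.9, 30.8 and 35.1 in SH2 and 32.0, 18.8 and 23.2 in SH3. Both knockdowns were above SC, by 1.43 (SE 0.17, adjusted p of 9.2e-06 by edgeR) and 0.89 (SE 0.17, adjusted p of 0.00076 by edgeR). COL13A1, a membrane collagen of cell adhesions, was at 49.9, 66.7 and 59.0 CPM in SC, 108, 94.8 and 103 in SH2 and 94.9, 91.1 and 81.1 in SH3. Again no library overlapped SC, and the changes were 0.80 (SE 0.11, adjusted p of 3.7e-05 by edgeR) and 0.60 (SE 0.11, adjusted p of 0.00053 by edgeR).

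Of the multiplexins, basement-membrane collagens that carry heparan or chondroitin sulfate, COL15A1 had 27, 50 and 29 counts in SC RNA, 141, 124 and 147 in SH2 and 78, 64 and 79 in SH3. The groups did not overlap, and COL15A1 rose by 1.84 (SE 0.23, adjusted p of 1.3e-05 by edgeR) and 1.04 (SE 0.24, adjusted p of 0.0025 by edgeR). COL18A1, the source of endostatin, was at 64.1, 64.9 and 64.7 CPM in SC, 87.6, 114 and 141 in SH2 and 57.3, 67.1 and 68.0 in SH3. It rose by 0.82 in SH2 (SE 0.14, adjusted p of 0.00017 by edgeR) and stood at -0.01 in SH3 (SE 0.14, adjusted p of 0.963 by edgeR).

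Of 5 fibril-associated chains (FACIT) tested in RNA, SH2 had 2 called higher (31.1% of all genes) and 2 lower (30.4%). SH3 had 1 called higher (27.8%) and 3 lower (25.2%). COL12A1 among them and COL8A1, of another class, fell in both knockdowns. COL12A1, which coats type I fibrils in dense tissue, was at 70.7, 52.0 and 56.2 CPM in SC RNA, 22.3, 20.5 and 21.1 in SH2 and 32.9, 21.9 and 26.5 in SH3. Every knockdown library was below SC, by 1.49 (SE 0.15, adjusted p of 1.6e-06 by edgeR) and 1.14 (SE 0.15, adjusted p of 2.6e-05 by edgeR) in the means. COL8A1, a short-chain collagen of vessel walls and the cornea, was at 53.1, 69.3 and 54.7 CPM in SC, 30.3, 17.3 and 19.9 in SH2 and 46.1, 22.6 and 26.1 in SH3, all below SC. It fell by 1.39 (SE 0.24, adjusted p of 0.00023 by edgeR) and by 0.90 (SE 0.24, adjusted p of 0.0061 by edgeR).

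COL9A2, a cartilage FACIT chain, had 111, 85 and 113 counts in SC RNA, 91, 45 and 73 in SH2 and 31, 25 and 39 in SH3. It fell by 1.71 in SH3 (SE 0.27, adjusted p of 0.00014 by edgeR), without overlap, and by 0.67 in SH2 (SE 0.25, adjusted p of 0.0308 by edgeR). The SH2 call did not hold without SC replicate 1 or 3 or without SH2 replicate 2 or 3, where the values were -0.62, -0.62, -0.44 and -0.69. COL9A3, its trimer partner, fell by 1.10 in SH3 from 13 to 20 counts to 5 to 10 (SE 0.40, adjusted p of 0.0326 by edgeR), a call lost without SC replicate 2 (-0.87), SH3 replicate 2 (-1.13) or SH3 replicate 3 (-0.89). COL16A1, a FACIT chain of skin and smooth muscle, rose instead, from 92, 71 and 82 counts in SC to 328, 175 and 197 in SH2 and 188, 148 and 182 in SH3. Its changes were 1.41 (SE 0.24, adjusted p of 0.00016 by edgeR) and 1.06 (SE 0.24, adjusted p of 0.0021 by edgeR), and no library overlapped SC. COL19A1 had 10, 6 and 13 counts in SC, 29, 34 and 37 in SH2 and 9, 11 and 17 in SH3, and rose by 1.66 in SH2 (SE 0.33, adjusted p of 0.00059 by edgeR) against 0.33 in SH3 (SE 0.38, adjusted p of 0.481 by edgeR).

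Footprints carried the same shift for most chains deep enough to test. The 55 chains took 0.228% ± 0.0569 of the counts of SC footprints, against 0.427% ± 0.0584 for SH2 and 0.412% ± 0.049 for SH3 (mean ± SD, n = 3 each), again with every knockdown library above SC. Of 25 chains tested, COL15A1 passed the footprint filter only through SH2 and COL4A6 only through the knockdowns, so their values are not read as rises. The counts, medians and correlations that follow include both and describe the chains that passed. Of the 25, 18 were called in SH2 (44.2% of 10345 genes), 14 higher (21% of all genes) and 4 lower (23.2%). In SH3, 14 were called (36% of all), 10 higher (16.9%) and 4 lower (19%). The median log2 change was 0.78 in SH2 and 0.66 in SH3, beside -0.00 and -0.01 over all genes. Across the 25 chains the RNA and footprint changes had a Pearson correlation of 0.92 in SH2 and 0.91 in SH3, beside 0.86 in each over the 10335 genes tested in both. This describes chains measured in the same lysates, and chains are not replicates.

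**Figure D3:**
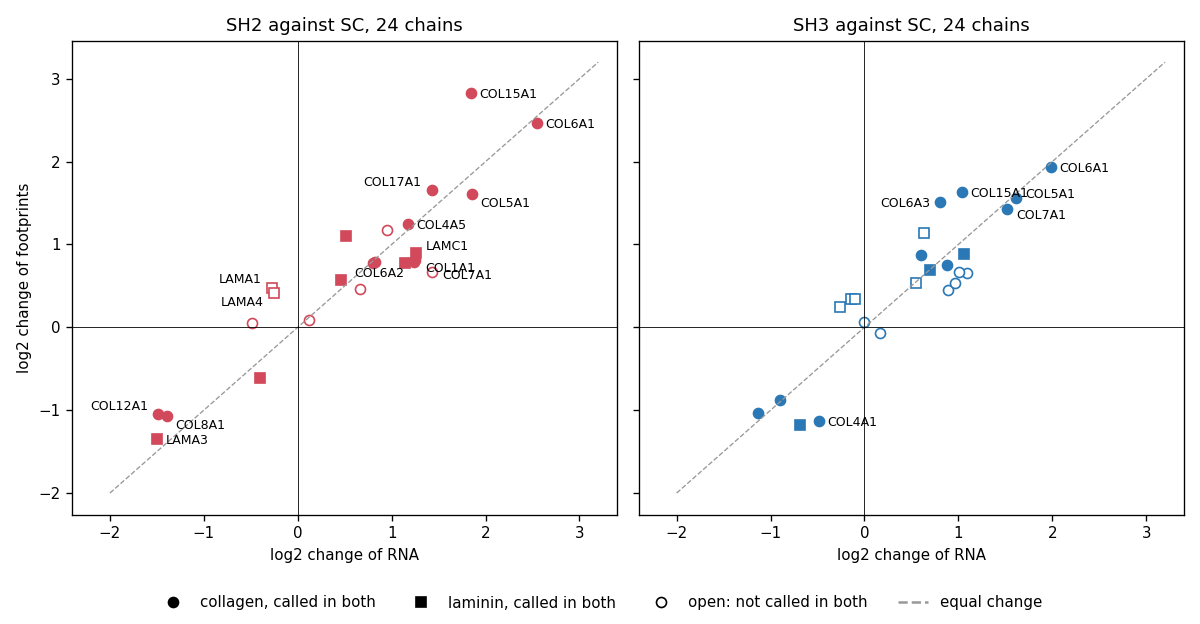
Log2 change of footprints (vertical) against log2 change of RNA (horizontal) for 24 chains tested in both, SH2 on the left and SH3 on the right; circles are collagens, squares are laminins, filled symbols were called in both measures, and the dashed line marks equal change. COL6A1 lies near the line in both panels, and COL4A1 in SH3 lies below it at -1.13 against -0.49. COL15A1 and COL4A6 are plotted, although their footprint values are not read as rises.

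COL6A1 footprints were at 79.5, 102 and 78.5 CPM in SC, 513, 428 and 487 in SH2 and 278, 342 and 364 in SH3. The 3 groups again did not overlap, and the changes were 2.47 (SE 0.16, adjusted p of 6.5e-08 by edgeR) and 1.93 (SE 0.15, adjusted p of 6.6e-07 by edgeR). COL6A2 footprints rose by 0.79 in SH2 (SE 0.21, adjusted p of 0.006 by edgeR), and their SH3 value was 0.53 (SE 0.21, adjusted p of 0.063 by edgeR), which passed without SC replicate 2 (0.66, adjusted p of 0.026 by edgeR), SH2 replicate 2 (0.53, adjusted p of 0.038 by edgeR) or SH3 replicate 1 (0.65, adjusted p of 0.047 by edgeR). COL6A3 footprints were at 13.9, 22.7 and 19.1 CPM in SC, 11.5, 22.3 and 21.6 in SH2 and 48.5, 51.6 and 54.6 in SH3. They overlapped SC in SH2, at 0.05 (SE 0.24, adjusted p of 0.885 by edgeR), and rose by 1.51 in SH3 (SE 0.23, adjusted p of 0.00015 by edgeR), so the fall seen in SH2 RNA was not called in footprints.

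LAMA3 footprints were at 15.2, 14.7 and 14.9 CPM in SC, 7.02, 5.58 and 5.17 in SH2 and 20.4, 21.9 and 14.7 in SH3. As in RNA, SH2 alone was below SC, by 1.35 (SE 0.24, adjusted p of 0.00037 by edgeR), and the SH3 value was 0.34 (SE 0.22, adjusted p of 0.241 by edgeR). LAMB3 footprints rose by 0.77 (SE 0.23, adjusted p of 0.0135 by edgeR) and 0.70 (SE 0.23, adjusted p of 0.0287 by edgeR). The SH2 call was lost without SH2 replicate 2 (0.49), and the SH3 call without SC replicate 1 (0.51) or 3 (0.72) or SH3 replicate 1 (0.50) or 2 (0.74).

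LAMC1 footprints were at 306, 518 and 354 CPM in SC, 668, 906 and 601 in SH2 and 894, 686 and 591 in SH3, all above SC. They rose by 0.89 in each knockdown (SE 0.21, adjusted p of 0.0024 and 0.0034 by edgeR). LAMB1 footprints were at 60.1, 67.2 and 68.7 CPM in SC, 41.0, 37.4 and 50.4 in SH2 and 27.4, 32.1 and 26.6 in SH3, without overlap between any of the groups. They fell by 0.61 (SE 0.16, adjusted p of 0.0057 by edgeR) and by 1.18 (SE 0.17, adjusted p of 9e-05 by edgeR). LAMA5 footprints were at 81.9, 105 and 104 CPM in SC and 189, 172 and 262 in SH2, a rise of 1.10 (SE 0.18, adjusted p of 0.00018 by edgeR), against 0.24 in SH3 (SE 0.18, adjusted p of 0.331 by edgeR). LAMB2 footprints rose by 0.57 in SH2 (SE 0.21, adjusted p of 0.0329 by edgeR), a call lost without SC replicate 1 (0.33) or 3 (0.54) or SH2 replicate 2 (0.53) or 3 (0.56). Their SH3 value was 0.53 (SE 0.21, adjusted p of 0.054 by edgeR), and without SC replicate 2 the SH2 and SH3 values were 0.90 and 0.86.

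COL4A1 footprints were at 63.0, 135 and 84.8 CPM in SC, 89.8, 154 and 139 in SH2 and 45.0, 38.9 and 44.1 in SH3. All SH3 libraries were below SC, a fall of 1.13 (SE 0.25, adjusted p of 0.0027 by edgeR). SH2 overlapped SC at 0.46 (SE 0.23, adjusted p of 0.12 by edgeR), and this value passed with replicate numbers as a block (0.47, adjusted p of 0.039 by edgeR), without SC replicate 2 (0.79, adjusted p of 0.0035 by edgeR) or without SH2 replicate 1 (0.67, adjusted p of 0.038 by edgeR). COL4A2 footprints stood at 0.09 and -0.07 (SE 0.22 and 0.23, adjusted p of 0.761 and 0.822 by edgeR). COL4A5 footprints rose by 1.25 (SE 0.25, adjusted p of 0.00079 by edgeR) and 0.75 (SE 0.26, adjusted p of 0.0353 by edgeR). The second of these calls was lost without SC replicate 1 (0.63) or 3 (0.85) or SH3 replicate 1 (0.62) or 2 (0.75). COL7A1 footprints, at 8.91, 25.2 and 12.6 CPM in SC, were at 34.5, 45.1 and 36.4 in SH3, a rise of 1.43 (SE 0.30, adjusted p of 0.00165 by edgeR). In SH2 they were at 15.9, 25.6 and 26.5, a value of 0.67 (SE 0.30, adjusted p of 0.085 by edgeR) that passed with the block (0.64, adjusted p of 0.027 by edgeR), without SC replicate 2 (1.09, adjusted p of 0.0018 by edgeR) or without SH2 replicate 1 (0.87, adjusted p of 0.045 by edgeR).

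COL5A1 footprints were at 54.6, 84.0 and 57.4 CPM in SC, 133, 255 and 201 in SH2 and 187, 182 and 198 in SH3, wholly above SC, with changes of 1.61 (SE 0.21, adjusted p of 2.3e-05 by edgeR) and 1.56 (SE 0.21, adjusted p of 6e-05 by edgeR). COL13A1 footprints rose by 0.78 (SE 0.14, adjusted p of 0.00037 by edgeR) and 0.87 (SE 0.14, adjusted p of 0.00026 by edgeR). COL15A1 had 9, 2 and 2 footprint counts in SC, 17, 33 and 18 in SH2 and 3, 9 and 10 in SH3. It passed the footprint filter only through SH2, where it was highest, so its calls are not read, although the counts of footprint calls include it. COL17A1 and COL18A1 footprints rose in SH2, by 1.66 (SE 0.25, adjusted p of 8.8e-05 by edgeR) and 0.78 (SE 0.20, adjusted p of 0.0042 by edgeR), and stood at 0.46 and 0.06 in SH3 (adjusted p of 0.21 and 0.839 by edgeR). COL1A1 footprints rose by 0.81 in SH2 (SE 0.30, adjusted p of 0.0356 by edgeR), a call that failed without SC replicate 1 (0.62) or 3 (0.73) or SH2 replicate 2 (0.45) or 3 (0.81), and stood at 0.66 in SH3 (adjusted p of 0.104 by edgeR), or at 0.97 without SC replicate 2 (adjusted p of 0.013 by edgeR).

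COL12A1 footprints were at 36.1, 58.0 and 58.6 CPM in SC, 22.5, 26.7 and 23.9 in SH2 and 28.6, 22.2 and 23.8 in SH3, all below SC. They fell by 1.04 in each knockdown (SE 0.20 and 0.21, adjusted p of 0.00068 and 0.0013 by edgeR). COL8A1 footprints were at 65.9, 62.6 and 90.0 CPM in SC, 25.5, 44.2 and 33.6 in SH2 and 59.0, 27.0 and 36.4 in SH3. They fell by 1.07 (SE 0.25, adjusted p of 0.0024 by edgeR) and by 0.88 (SE 0.25, adjusted p of 0.0123 by edgeR). The SH3 call was lost without SC replicate 3 (-0.69), SH3 replicate 2 (-0.64) or SH3 replicate 3 (-0.81). LAMA4, LAMA1 and COL4A6 footprints were called in neither knockdown. LAMA1 stood at 0.48 in SH2 and 1.13 in SH3 (adjusted p of 0.416 and 0.057 by edgeR), and at 1.62 in SH3 without SC replicate 2 (adjusted p of 0.0062 by edgeR). COL4A6 stood at 1.18 in SH2 and 0.66 in SH3 (adjusted p of 0.074 and 0.405 by edgeR), and at 1.57 in SH2 without SC replicate 2 (adjusted p of 0.022 by edgeR). It reached the cutoff of the footprint filter in 0 SC libraries, 2 of SH2 and 1 of SH3. COL4A6 thus passed only through the knockdowns, and none of these footprint values is read as a rise.

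Counts of one chain per count of a partner in the same library show the split within trimers without any scaling between libraries. The size of such a ratio depends on the lengths of both genes, so it is compared only between treatments. In RNA, COL4A1 per COL4A2 was 0.567 ± 0.0101 in SC, 0.822 ± 0.0779 in SH2 and 0.360 ± 0.057 in SH3 (mean ± SD, n = 3 each). In footprints it was 0.490 ± 0.0346, 0.632 ± 0.0322 and 0.237 ± 0.0151. The 3 treatments did not overlap in either kind of library. COL6A3 per COL6A1 in RNA was 0.730 ± 0.179 in SC, 0.0887 ± 0.0237 in SH2 and 0.318 ± 0.0706 in SH3, and COL6A1 per COL6A2 was 1.80 ± 0.279, 4.60 ± 0.75 and 3.70 ± 0.309. In RNA, type VI thus counted more COL6A1 against both partners in each knockdown library than in any SC library.

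LAMA3 per LAMB3 in RNA was 0.122 ± 0.0324 in SC, 0.0203 ± 0.0098 in SH2 and 0.0666 ± 0.0116 in SH3, without overlap between SC and either knockdown. In footprints it was 0.0306 ± 0.00989, 0.00716 ± 0.00253 and 0.0230 ± 0.00425, and SH3 overlapped SC. LAMB1 per LAMB2 in RNA was 0.429 ± 0.103 in SC, 0.230 ± 0.0362 in SH2 and 0.177 ± 0.0143 in SH3, below SC in every knockdown library. Over 5 chain pairs and 20 comparisons with SC, no ratio could pass 0.05, because the smallest two-sided exact permutation p for 3 against 3 is 0.1.

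**Figure D4:**
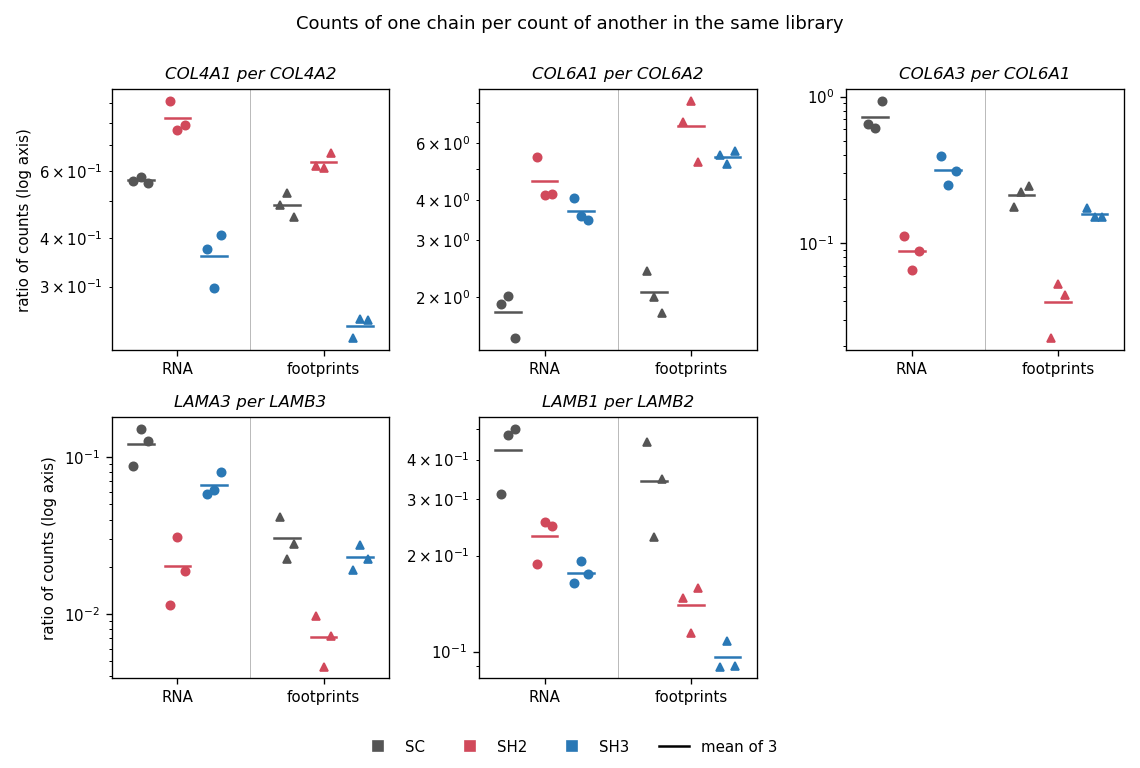
Counts of one chain per count of another in the same library (vertical log axis) for 5 pairs; circles are RNA, triangles are footprints, colours are the treatments and bars are means of 3. COL4A1 per COL4A2 separates the 3 treatments in both kinds of library, from 0.360 in SH3 to 0.822 in SH2 in the RNA means.

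Translational efficiency, the footprint change minus the RNA change, was tested for 33 chains. COL5A2 was the 1 chain called in SH2 (3.9% of 12531 genes were called, 1.44% higher and 2.46% lower) and the 1 called in SH3 (0.686%), and it was lower in both. COL5A2 had 10, 5 and 7 footprint counts in SC, 1, 4 and 3 in SH2 and 1, 2 and 2 in SH3, while its RNA counts rose as given above. The change was -1.90 (SE 0.52, adjusted p of 0.0426 by edgeR) in SH2 and -2.61 (SE 0.56, adjusted p of 0.0335 by edgeR) in SH3. From the summed counts, the ratio of its footprints to SC was 0.509 in SH2 (exact 95% interval 0.196 to 1.19) and 0.450 in SH3 (0.133 to 1.22), counting error only, so a fall of the footprints themselves was not detectable at this depth. The calls were lost without any 1 lysate of SC, SH2 or SH3 in the SH2 comparison, at -1.67 to -2.18, and without any 1 lysate of SC or SH3 in the SH3 comparison, at -2.41 to -2.90. Between SH2 and SH3, 0 chains were called by edgeR (0.016% of all genes), 2 had an unadjusted p under 0.05, and DESeq2 called 0. COL7A1 stood at -0.74 in SH2 and was called without SC lysate 1 (-1.17, adjusted p of 0.048 by edgeR). The medians of the 33 were 0.07 in SH2 and 0.01 in SH3, beside -0.02 and -0.04 over all genes.

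When lysates were set as a block with numbers 1 and 2 of SC and SH2 exchanged, an alternative chosen after seeing the correlations given above, more chains were called by edgeR. In SH2, LAMA5 was higher (0.61, adjusted p of 0.012 by edgeR), and COL7A1 (-0.77, adjusted p of 0.016 by edgeR), COL1A1 (-0.51, adjusted p of 0.036 by edgeR), LAMB3 (-0.39, adjusted p of 0.048 by edgeR) and COL5A2 (-1.91, adjusted p of 0.042 by edgeR) were lower, beside 13.2% of all genes. In SH3, COL6A3 was higher (0.75, adjusted p of 0.015 by edgeR), and COL4A1 (-0.56, adjusted p of 0.042 by edgeR) and COL5A2 (-2.60, adjusted p of 0.023 by edgeR) were lower, beside 6.04% of all genes. With lysates blocked as numbered, 0 chains were called in either comparison, beside 1.52% and 0.184% of all genes.

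Set directly against each other, the hairpins differed in 14 of 36 chains in RNA (39.3% of all genes), with 10 higher in SH2 (18.9%) and 4 lower (20.4%). In footprints 9 of 25 differed (23.8%), 7 higher in SH2 (12.1%) and 2 lower (11.6%). These counts include COL3A1 in RNA and COL15A1 in footprints, which passed those filters only through SH2 and whose calls are not read. COL4A1 was higher in SH2 by 1.15 in RNA (SE 0.16, adjusted p of 0.0001 by edgeR) and by 1.59 in footprints (SE 0.25, adjusted p of 0.00036 by edgeR). COL6A3 was lower in SH2, at -1.29 in RNA (SE 0.12, adjusted p of 4e-06 by edgeR) and -1.46 in footprints (SE 0.23, adjusted p of 0.00038 by edgeR). LAMA3 footprints differed by -1.68 (SE 0.25, adjusted p of 0.0002 by edgeR). COL19A1 RNA differed by 1.33 (SE 0.32, adjusted p of 0.0045 by edgeR) and COL9A2 RNA by 1.05 (SE 0.28, adjusted p of 0.00875 by edgeR).

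COL17A1 footprints were higher in SH2 by 1.2 (SE 0.26, adjusted p of 0.0034 by edgeR). COL6A1 was also higher in SH2, by 0.56 in RNA (SE 0.14, adjusted p of 0.0076 by edgeR). The footprint count was 9 chains with all libraries and 5 without SH3 replicate 1, the shallowest library. Scaled by library totals, 6 chains were called higher in SH2 and 3 lower, with COL15A1 no longer called and COL7A1 (-0.83) called.

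The gene that COL4A1 RNA tracked most closely was not its partner. Over the 9 RNA libraries the highest Pearson correlations of log2 CPM with COL4A1 were those of CDR2 (0.97), AACS (0.97), CCND3 (0.97), C1S (0.97) and PIP5KL1 (0.97). COL4A2 correlated at 0.24 and ranked 4420 among the genes tested. These libraries share their treatments, so the values are a description.

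Genes that modify, secrete, cross-link or bind these chains were counted in lists chosen with earlier results of these data known. Of 12 receptor genes tested in RNA, 9 rose in SH2 and 8 in SH3, and 0 fell, beside 31.1% and 27.8% of all genes higher and 30.4% and 25.2% lower. The medians were 0.91 and 0.59, beside 0.01 and 0.03 over all genes. The 12 include ITGA11, at 0.0816 to 0.157 CPM in SC RNA, 0.392 to 0.604 in SH2 and 0 to 0.153 in SH3. ITGA11 passed the filter only through SH2, where it was highest, so its SH2 change is not read. The counts and medians cover all 12 and describe the genes that passed. ITGA3, the main integrin chain for the laminin of LAMA3 and LAMB3, rose by 1.69 (SE 0.10, adjusted p of 1.9e-08 by edgeR) and 1.32 (SE 0.09, adjusted p of 2.6e-07 by edgeR). ITGB4, the hemidesmosome partner for the same laminin, rose by 1.15 (SE 0.10, adjusted p of 6.1e-07 by edgeR) and 0.95 (SE 0.10, adjusted p of 6.1e-06 by edgeR). ITGA10, a collagen-binding integrin chain, rose by 2.76 (SE 0.23, adjusted p of 4.1e-07 by edgeR) and 2.42 (SE 0.24, adjusted p of 2.9e-06 by edgeR). ITGA1, another collagen-binding chain, rose in footprints by 1.51 (SE 0.19, adjusted p of 1.9e-05 by edgeR) and 1.35 (SE 0.20, adjusted p of 9.6e-05 by edgeR).

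Among 6 basement-membrane partners tested, 3 rose and 2 fell in SH2, and 3 rose and 3 fell in SH3. Of all genes, 31.1% and 27.8% were higher and 30.4% and 25.2% lower. The 6 include SPARC, at 0.49 to 0.70 CPM in SC RNA, 0.226 to 0.431 in SH2 and 0.252 to 0.306 in SH3. SPARC passed the filter only through SC, where it was highest, so its changes are not read. HSPG2, the heparan sulfate proteoglycan perlecan, was at 192, 150 and 154 CPM in SC RNA and at 52.6 to 74.7 CPM in the knockdowns, a fall of 1.54 in SH2 and 1.30 in SH3 (SE 0.13 each, adjusted p of 4.1e-07 and 3.4e-06 by edgeR). FBLN1, a matrix glycoprotein that binds laminin, fell by 2.11 (SE 0.31, adjusted p of 5.4e-05 by edgeR) and 1.30 (SE 0.29, adjusted p of 0.0021 by edgeR). Of 18 genes of secretion, trimming and cross-linking, 8 rose and 5 fell in SH2, and 7 rose and 3 fell in SH3. The shares of all genes were again 31.1% and 27.8% higher and 30.4% and 25.2% lower. The 18 include ADAMTS14, at 0.118 to 0.165 CPM in SC RNA, 0.527 to 0.711 in SH2 and 0.126 to 0.498 in SH3. ADAMTS14 passed the filter only through SH2, where it was highest, so its changes are not read. BMP1, the procollagen C-proteinase, rose by 1.56 (SE 0.12, adjusted p of 2.6e-07 by edgeR) and 1.22 (SE 0.12, adjusted p of 3.7e-06 by edgeR), and LOXL2, a lysyl oxidase, by 1.55 (SE 0.14, adjusted p of 9.2e-07 by edgeR) and 1.08 (SE 0.14, adjusted p of 3.4e-05 by edgeR).

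LOXL1, another lysyl oxidase, fell by 1.2 (SE 0.12, adjusted p of 1.5e-06 by edgeR) and 1.66 (SE 0.12, adjusted p of 3.1e-07 by edgeR). TLL2, a relative of BMP1, rose by 1.31 (SE 0.33, adjusted p of 0.0032 by edgeR) and 1.57 (SE 0.32, adjusted p of 0.001 by edgeR). Its level was low, at 0.449, 0.412 and 0.236 CPM in SC RNA, near the filter's cutoff of 0.391 CPM. Of 17 genes of chain modification and folding, 10 rose and 5 fell in SH2, and 6 rose and 6 fell in SH3, beside 31.1% and 27.8% of all genes higher and 30.4% and 25.2% lower. The medians were 0.56 and -0.04, beside 0.01 and 0.03 over all genes. No gene of the 4 lists was called in translational efficiency by edgeR in any comparison.

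The remaining 19 chains did not pass the RNA filter. Of these, 10 had at most 3 counts in every RNA library, namely COL2A1, COL4A3, COL5A3, COL6A5, COL9A1, COL10A1, COL22A1, COL23A1, COL26A1 and COL28A1. COL23A1 had 0 counts in all 9, which allows up to 3 counts per library. COL1A2, COL8A2, COL14A1, COL21A1, COL24A1, COL25A1, LAMB4 and LAMC3 had at most 11 counts in any RNA library. COL20A1, a FACIT chain, had 0 counts in all SC RNA libraries, 13, 6 and 11 in SH2 and 1, 4 and 2 in SH3. Some chains with RNA had few footprints. COL27A1 had 441, 382 and 407 RNA counts in SC but 12, 1 and 5 footprint counts, and COL16A1 had 92, 71 and 82 against 3, 0 and 6.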

How the data were processed

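The authors deposited 1 table of 17017 genes for the 18 libraries, with raw counts of reads per gene and a normalized signal, which is the count divided by 1 factor per library. The authors also deposited log2 fold changes and p-values (raw and adjusted), made with DESeq2 after alignment with Bowtie 1.2.2, per the submitters' processing notes. Genome build, trimming, counting rules and the version of DESeq2 are not given in the sources used here. In the authors' deposited table, the log2, p-value and adjusted p-value columns for translational efficiency were identical for SH2 and SH3 in all 17017 genes and were not used. By adjusted p under 0.05, the authors' deposited table had 24 chains higher and 7 lower of 45 in SH2 RNA, and 18 and 6 of 41 in SH3 RNA.

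Counts were tested with edgeR 4.0.16 (filterByExpr, TMM scaling, quasi-likelihood test, all 9 libraries of a kind in 1 fit, no block) in R 4.3.3, with Benjamini-Hochberg adjustment over all genes tested. SE is the absolute log2 change over the square root of F. Translational efficiency was the interaction of library kind and treatment in 1 fit of 18 libraries. The scripts were tested on simulated data. Biological variation was 11.6% in RNA and 15.1% in footprints. Replicates differed by more than sampling noise (chi-square per degree of freedom 3.38 to 56.3). Intervals cover counting error only.

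The members and the gene lists were chosen with earlier results of these data known. Chains were described with every library's value if called in both hairpins, in translational efficiency, or between the hairpins with an absolute log2 difference of at least 1, and chains with a mean of at least 100 RNA counts were named in any case. List genes were named if called in the same direction in both hairpins with an absolute log2 change of at least 1 in both. Those that passed the RNA filter only through a single treatment were named too. COL4A1 was set beside the 5 genes with the highest correlation of log2 (CPM + 0.1). Other chains that are named were chosen after their values were seen. Counts, medians and shares cover all chains, and 1 chain is not reported singly here. Same-numbered SC and SH2 libraries deviated together (correlations 0.328 to 0.369 in RNA and 0.243 to 0.288 in footprints). Those of SC and SH3 did not do so for every number (0.24, -0.115 and 0.281 in RNA, 0.012, -0.059 and 0.248 in footprints for numbers 1, 2 and 3). No fit paired SC and SH2 alone. The main fits used no block, and the replicate block was set on the numbers of SC, SH2 and SH3 together. Alternatives were DESeq2 1.42.0, library-total scaling, no filter, stricter thresholds, the replicate block, thinned footprints, only the groups compared, and leaving out each replicate.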

Additional observations from a re-analysis of the deposited data

Results flagged for a closer look

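COL4A1 RNA stood above SC in all SH2 libraries and below SC in all SH3 libraries, and the tested difference between the hairpins was 1.15 on the log2 scale (adjusted p of 0.0001 by edgeR). COL6A3 RNA stood below SC in all SH2 libraries and above SC in all SH3 libraries, with a difference of -1.29 (adjusted p of 4e-06 by edgeR). Both hairpins target the same mRNA, and what sets them apart was not tested.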

How the results depend on the processing

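The stricter thresholds were left out of the next counts, which cover called results for single chains. In every other alternative run, 56 of 69 stayed called in RNA, 30 of 41 in footprints and 0 of 2 in translational efficiency. Of these called results, 0 changed direction. In the order SH2 against SC, SH3 against SC and SH2 against SH3, an absolute log2 change of at least 1 left 19, 15 and 6 chains in RNA and 10, 9 and 5 in footprints. An adjusted p under 0.01 left 5 chains in footprints of SH2 against SH3. Leaving out each replicate gave 27 to 31, 24 to 26 and 11 to 16 chains in RNA and 15 to 21, 10 to 18 and 5 to 10 in footprints. For translational efficiency it gave 0 to 1, 0 to 1 and 0 to 0, and the 1 chain of SH2 without SC replicate 1 was COL7A1. In translational efficiency, an adjusted p under 0.01, DESeq2, no filter on low counts and a fit of only the groups compared each left 0 chains in SH2 and 0 in SH3, and thinned footprints left 0 in SH3 and, in SH2, 1 that was COL15A1 (adjusted p of 0.0273 by edgeR) and not COL5A2 (adjusted p of 0.109 by edgeR). The cause was not tested.

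With the replicate numbers as a block, 30, 26 and 19 chains were called in RNA and 20, 17 and 10 in footprints. With lysates as the block, 0, 0 and 0 were called in translational efficiency, and with the exchanged pairing, chosen after seeing the data, 5, 3 and 1. For SH2 against SC, the block changed the call of COL4A1 and COL7A1 footprints, as given in the report, and of no RNA result. Of the 55 chains, 36 could be tested in RNA and 25 in footprints, where the shallowest library had 1662705 counts. What part of that gap is due to depth was not tested.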
